A study of Mus musculus with 95 samples.

Results

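The genes described are 35 members of the endoplasmic reticulum (ER) chaperone and unfolded protein response programme, given as a list of symbols and matched to Ensembl identifiers in the count table. All 35 were found among the 55471 features of the table. By role they are 9 lumenal chaperones of the HSP70 and HSP90 type with their partners, 3 lectin chaperones or their folding sensor, 6 disulfide isomerases, 8 components of ER-associated degradation, 5 components of the translocon and the signal peptidase, and 4 sensors and transcription factors. RNA came from the nucleus accumbens of B6;FVB mice carrying Tg(Aldh1l1-EGFP/Rpl10a)JD130Htz, a transgene in which the regulatory sequence of the astrocyte gene Aldh1l1 drives a ribosomal protein fused to a green fluorescent protein. Pulling down the tagged ribosomes gave an IP library of astrocyte translating RNA for 46 of the 49 mice. Material set aside before the pull-down gave an input library of the whole tissue, the only library for 3 mice. Dependent mice went through CIE-2BC, which in this field stands for chronic intermittent ethanol exposure combined with 2-bottle choice drinking, with 5 rounds of CIE. Non-dependent mice were the 2BC controls, and naive mice were ethanol naive. Every group carried the transgene, and no age is stated in the labels.

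The series holds 95 libraries of 49 mice of both sexes in 6 batches, and 46 mice have both libraries. Total counts ran from 14314236 to 27146790 in IP libraries and from 12803108 to 23948193 in input libraries, and the 35 members together took 0.290% to 0.713% of an IP library and 0.232% to 0.436% of an input library. Astrocyte markers rose in IP over input (12 of 12, median log2 fold change 3.10), while markers of neurons fell (8 of 8, median -1.32), as did those of microglia (10 of 10, median -1.15). Treatments were compared in batches I, J, K and L, which hold 16 dependent, 13 non-dependent and 15 naive IP libraries and 16, 15 and 16 input libraries. Naive mice are missing from batch I, and non-dependent mice from batch L. Counts of mice above every mouse of another group pool batches I to L, so they can also hold differences between batches. Levels are given as CPM, the counts of a gene scaled to a common library total. Differences are log2 fold changes with their standard error (SE) from edgeR's quasi-likelihood test, with p-values adjusted by the Benjamini-Hochberg method over all genes tested and called at or under 0.05.

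Proteins that enter the ER are translocated, folded with the help of lumenal and lectin chaperones, joined by disulfide bonds, and handed to the degradation machinery when folding fails. When unfolded protein accumulates, the sensors encoded by Ern1 (IRE1), Atf6 and Eif2ak3 (PERK) start the unfolded protein response, in which the transcription factors XBP1 and ATF6 raise the transcription of chaperone and degradation genes. Astrocytes make many secreted and membrane proteins, all of which pass through the ER.

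In astrocyte IP libraries, 12 of the 35 members rose in dependent mice over each control group. Against non-dependent mice 14 of the 35 members rose and none fell, while 1.54% of the 19979 genes tested were called in either direction and 1.10% rose. Against naive mice 15 members rose and none fell, with 4.67% of all genes called, 2.81% higher and 1.86% lower. The median member differed by 0.24 on the log2 scale from non-dependent mice and by 0.31 from naive mice, against 0.0021 and 0.0016 for all genes tested. Both comparisons use the same dependent mice, and the share of all genes called in both was not computed. The members were chosen with earlier results of these data known. The members called in both were Hspa5, Hsp90b1, Dnajb9, Dnajb11, Dnajc3, Sdf2l1, Manf, Calr, Canx, Pdia3, Pdia6 and Xbp1. Without batch I, which leaves 9 dependent and 6 non-dependent mice, edgeR called 0 of the 35 members and 3 of all genes between these groups, and the median member difference was 0.15. The differences of Hspa5, Manf and Xbp1 from non-dependent mice were then 0.51, 0.63 and 0.38, against 0.63, 0.86 and 0.42 with batch I, while those of Calr and Hsp90b1 were 0.24 and 0.05, against 0.83 and 0.53.

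**Figure D1:**
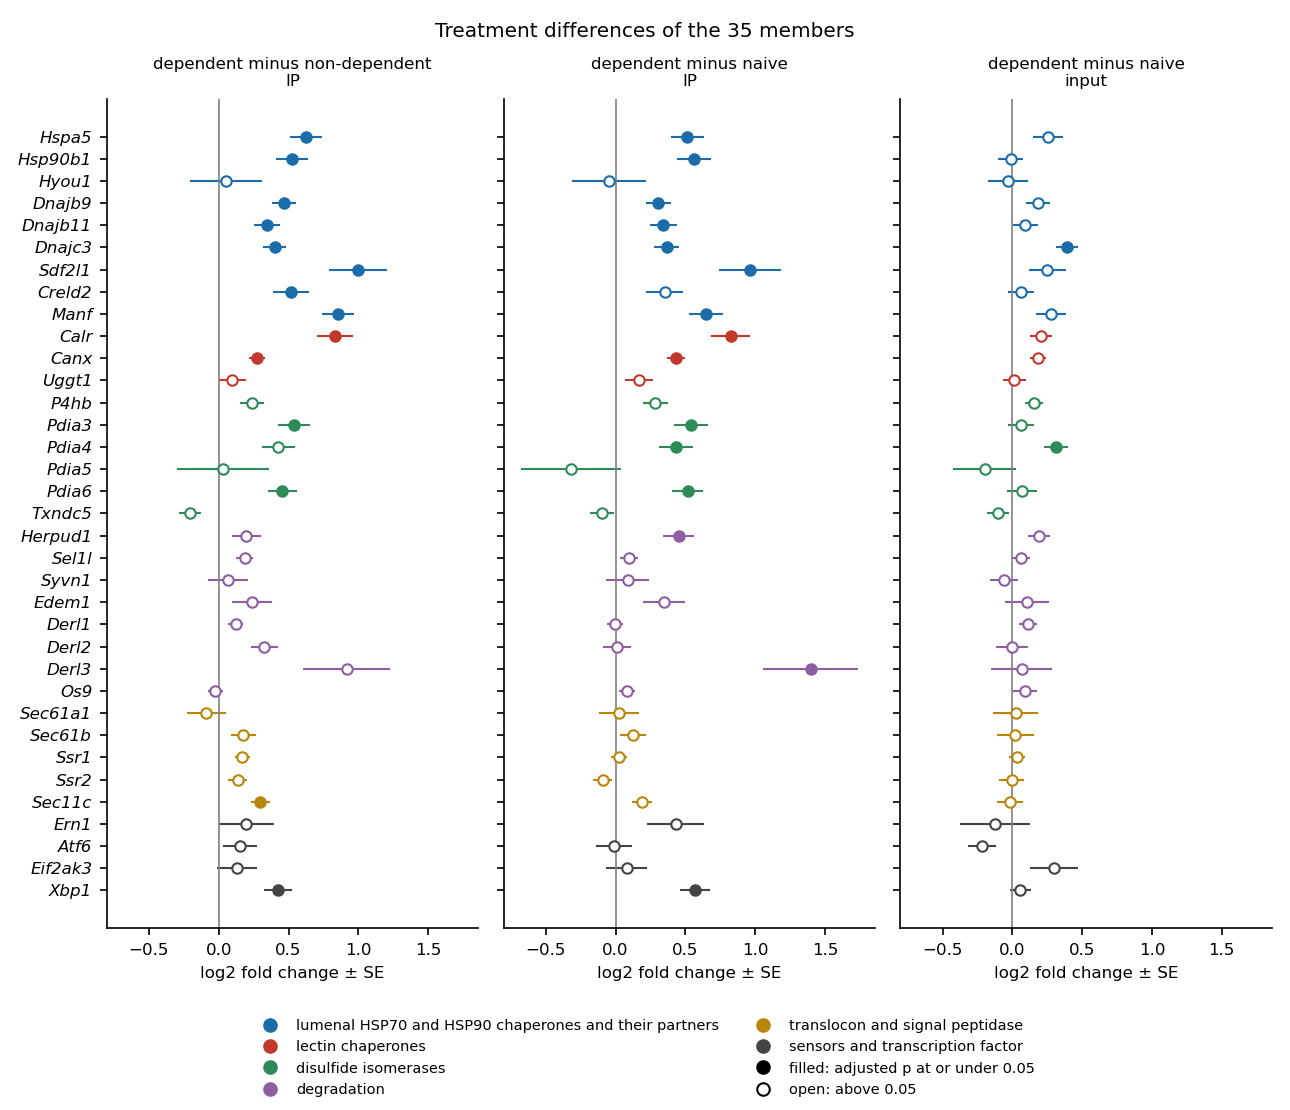
Treatment differences of the 35 members as log2 fold changes (horizontal axis, with SE) in IP for dependent minus non-dependent and dependent minus naive mice, and in input for dependent minus naive mice. Points are coloured by role and filled where the adjusted p was at or under 0.05: 14, 15 and 2 members were called, all of them higher in dependent mice.

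Binding sites through which the unfolded protein response is known to act were looked for in the promoters of these genes, taken from RefSeq (build GRCm38.p6) as the 250 bases before to the 50 bases after each start. Of the 35 members 28 matched an entry, and Manf, Hyou1, Derl1, Sec61a1, Ssr2, Atf6 and Sec11c did not. The ER stress response element (ERSE: CCAAT, then 9 bases of any kind, then CCACG, on either strand) was present in 9 of the 28 members. Counted by promoter, ERSE was present in 9 of the 31 of the members and in 39 of all 32851 (0.119%), which include those of the members. Its holders were Hspa5, Hsp90b1 with a pair of copies, Calr, Canx, Creld2, Pdia6, Dnajc3, Derl3 and Syvn1. The second element (ERSE-II: ATTGG, then 1 base of any kind, then CCACG), which shares CCACG with ERSE, was present in Dnajb11 and Herpud1 and in 0.0365% of all promoters. The short XBP1 element (UPRE: TGACG followed by TGG, whose CGTGG is CCACG on the other strand) was present in Txndc5 and in 0.676% of all promoters. Shown here are the upstream stretches, written 5′ to 3′ on the strand of the gene with the element in capitals, for the members around which the results turn, for Herpud1 as a holder of ERSE-II and for Syvn1 as a holder of ERSE that was called in neither comparison.
Hspa5 (chr2:34771965-34772083, plus strand): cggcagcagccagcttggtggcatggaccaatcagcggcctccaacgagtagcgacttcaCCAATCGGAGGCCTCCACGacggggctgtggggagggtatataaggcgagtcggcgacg
Hsp90b1 (chr10:86705493-86705694, minus strand): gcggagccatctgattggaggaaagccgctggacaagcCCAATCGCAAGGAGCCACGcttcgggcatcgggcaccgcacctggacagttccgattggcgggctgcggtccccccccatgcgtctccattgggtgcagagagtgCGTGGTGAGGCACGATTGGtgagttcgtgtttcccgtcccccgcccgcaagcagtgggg
Calr (chr8:84847035-84847153, minus strand): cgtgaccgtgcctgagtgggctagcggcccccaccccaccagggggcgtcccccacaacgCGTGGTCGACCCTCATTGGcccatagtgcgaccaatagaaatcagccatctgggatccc
Canx (chr11:50325760-50325878, minus strand): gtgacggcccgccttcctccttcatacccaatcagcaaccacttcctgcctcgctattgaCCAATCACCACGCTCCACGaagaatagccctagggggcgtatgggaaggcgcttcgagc
Pdia6 (chr12:17266431-17266549, plus strand): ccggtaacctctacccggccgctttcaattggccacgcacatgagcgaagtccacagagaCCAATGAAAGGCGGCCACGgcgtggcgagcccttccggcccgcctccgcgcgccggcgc
Herpud1 (chr8:94386317-94386427, plus strand): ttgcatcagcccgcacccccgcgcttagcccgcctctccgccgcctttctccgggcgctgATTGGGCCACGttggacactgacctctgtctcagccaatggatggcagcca
Syvn1 (chr19:6046472-6046575, plus strand): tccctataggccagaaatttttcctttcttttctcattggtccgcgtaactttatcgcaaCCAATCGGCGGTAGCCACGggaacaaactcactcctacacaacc

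The element ends 47 bases before the start in Hspa5, 80 before it in Pdia6 and 127 before it in Canx, and in Calr it stands in the opposite orientation from 162 to 144 bases before the start. In IP, 8 of the 12 members with at least 1 of the 3 elements rose in dependent over non-dependent mice (median 0.43), against 4 of the 16 matched members without one (median 0.22). Against naive mice 9 of the 12 rose (median 0.44), against 5 of the 16 (median 0.23). These counts describe the windows searched and carry no test. They were made within this list alone, and calls of other genes that hold an element were not counted. Manf and Sec11c, called against non-dependent mice but without a promoter entry, are in neither class. Dnajb9, Sdf2l1, Pdia3 and Xbp1 rose in both comparisons and held none of the 3 letter patterns in these windows, and Syvn1, which holds ERSE, differed by 0.07 ± 0.14 and 0.09 ± 0.15 (log2, SE).

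Among the lumenal chaperones, 8 of 9 rose against non-dependent mice and 7 of 9 against naive mice. Hspa5, which encodes BiP, the HSP70 chaperone that also holds the stress sensors inactive, had a lowest, median and highest level of 199, 332 and 961 CPM in dependent mice, against 156, 227 and 401 CPM in non-dependent mice and 139, 202 and 299.7 CPM in naive mice. The groups overlapped, with 6 of 16 dependent mice above every non-dependent mouse, and the highest value came from the dependent mouse I11 of batch I. Hspa5 rose by 0.63 ± 0.12 against non-dependent mice (adjusted p = 0.00173, edgeR) and by 0.51 ± 0.12 against naive mice (adjusted p = 0.00643). Without batch I the first difference was 0.51 with an adjusted p of 0.0525, and without batch J neither was called (0.59, adjusted p = 0.0504, and 0.56, adjusted p = 0.0729). The difference from naive mice was also not called without batch L (0.47, adjusted p = 0.138).

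Manf, a small ER-resident and secreted protein known as a neurotrophic factor induced by ER stress, had 118 to 327 CPM (median 171) in dependent mice, against 73.7 to 161 CPM (median 90.3) in non-dependent mice and 78.1 to 164 CPM (median 106) in naive mice. Here 10 of 16 dependent mice lay above every non-dependent mouse. The difference of Manf was 0.86 ± 0.12 against non-dependent mice (adjusted p = 3.89e-05, edgeR) and 0.65 ± 0.12 against naive mice (adjusted p = 0.000537). Without batch I the first was 0.63 with an adjusted p of 0.06. Manf overlaps 4 annotated genes, among them Dcaf1 on the other strand and Rbm15b on its own. In all, 18 of the 35 members overlap another annotated gene, among them Hsp90b1, Pdia3, Pdia6, Dnajb11, Herpud1 and Derl2. Whether strand was used in the authors' counting is not stated in the labels.

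Hsp90b1, which encodes the HSP90 paralog GRP94, had 270 to 445 CPM (median 379) in dependent mice, against 163 to 549.7 CPM (median 204) in non-dependent mice and 206 to 322 CPM (median 270) in naive mice. The non-dependent mice ranged widely and differed by batch. In batch I the 7 dependent mice had 302 to 398 CPM, all above the 7 non-dependent mice at 163 to 204 CPM. In batch K the 2 dependent mice had 270 and 379 CPM, against 336 to 385 CPM in the 3 non-dependent mice. In batch J the 4 dependent mice had 347 to 429 CPM, against 279.98 to 549.7 CPM in the 3 non-dependent mice, the highest of which lay above every dependent mouse of any batch. Its fitted difference was 0.53 ± 0.12 against non-dependent mice (adjusted p = 0.00763, edgeR) and 0.05 without batch I, and 0.56 ± 0.12 against naive mice (adjusted p = 0.00332).

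Dnajb9 (ERdj4), a J-domain partner of BiP, had 41.1 to 124 CPM (median 58.2) in dependent mice, against 31.1 to 60.9 CPM (median 47.1) in non-dependent mice and 34.2 to 59.2 CPM (median 41.4) in naive mice. It rose by 0.47 ± 0.09 and 0.31 ± 0.09 against the non-dependent and the naive group (adjusted p = 0.00143 and 0.0384, edgeR). Without batch I its difference from non-dependent mice was 0.27 (adjusted p = 0.387). The difference of Dnajb9 from naive mice was not called without batch I, J, K or L (0.23 to 0.34, adjusted p = 0.121, 0.235, 0.103 and 0.138) or with the covariate for markers of other cell types over those of astrocytes (0.30, adjusted p = 0.0577). Sdf2l1, which acts with Dnajb11 (ERdj3) in the BiP cycle, showed the widest difference of the lumenal group, 0.996 ± 0.21 and 0.96 ± 0.22, with 13 of 16 dependent mice above every naive mouse. Of these 16, 7 were of batch I, which held no naive mouse. In none of batches J, K and L did every dependent mouse lie above every naive mouse for Sdf2l1. Without batch I the difference of Sdf2l1 from non-dependent mice was 0.32 (adjusted p = 0.698), below those of Creld2, Manf and Hspa5. Dnajc3 (p58IPK) rose by 0.40 ± 0.08 and 0.36 ± 0.09 and Dnajb11 by 0.35 ± 0.09 and 0.34 ± 0.10. Against naive mice, Sdf2l1 was not called without batch K (0.88, adjusted p = 0.0606), and Dnajc3 not without batch J or K (0.38, adjusted p = 0.0893, and 0.32, adjusted p = 0.101). Dnajc3 was also not called against non-dependent mice without batch I (0.32, adjusted p = 0.337) or batch J (0.38, adjusted p = 0.0696). The calls of Dnajb11 ended with the covariate in both comparisons (0.30, adjusted p = 0.0936, and 0.29, adjusted p = 0.0961), against non-dependent mice without batch I (0.19, adjusted p = 0.719), batch J (0.31, adjusted p = 0.168) or mouse I11 (0.32, adjusted p = 0.0786), and against naive mice without batch I, J or K (0.28, 0.37 and 0.19, adjusted p = 0.145, 0.121 and 0.48). Creld2, another ER stress-inducible protein, rose by 0.52 ± 0.13 against non-dependent mice and stood at 0.35 ± 0.13 against naive mice (adjusted p = 0.127). The call of Creld2 ended without mouse I11 (0.37, adjusted p = 0.0519) and without batch I, J, K or L (0.64, 0.43, 0.57 and 0.50, adjusted p = 0.0525, 0.185, 0.0582 and 0.0589). Hyou1, the nucleotide exchange factor GRP170, differed by 0.05 ± 0.26 and -0.05 ± 0.26 at a median of 5.08 CPM in dependent mice, so that its intervals span -0.46 to 0.56 and -0.56 to 0.47.

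The lectin chaperones Calr and Canx bind monoglucosylated glycoproteins, and Uggt1 is the glucosyltransferase that returns unfolded glycoproteins to them. Calr had 170 to 678 CPM (median 364) in dependent mice, against 127 to 341 CPM (median 189) in non-dependent mice and 129 to 312 CPM (median 152) in naive mice, and 9 of 16 dependent mice exceeded every mouse of either control group. Its levels split by batch: the 7 dependent mice of batch I lay at 508 to 678 CPM and the 7 non-dependent mice of that batch at 172 to 248 CPM. Calr rose by 0.83 ± 0.13 against non-dependent mice (adjusted p = 0.000206, edgeR) and by 0.82 ± 0.14 against naive mice (adjusted p = 0.000131). Without batch I these were 0.24 (adjusted p = 0.51) and 0.59 (adjusted p = 0.000104).

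Canx, the membrane-bound counterpart of Calr, had 427 to 739 CPM (median 521) in dependent mice, against 362 to 543 CPM (median 492) in non-dependent mice and 326 to 456 CPM (median 349.95) in naive mice. All but 1 of the 16 dependent mice, and 10 of the 13 non-dependent mice, lay above the highest naive mouse. These counts take in batch I, which held no naive mouse. Within batches, every non-dependent mouse lay above every naive mouse for Canx in batch K but not in batch J. Canx rose by 0.27 ± 0.06 against non-dependent mice (adjusted p = 0.00621, edgeR) and by 0.43 ± 0.06 against naive mice (adjusted p = 6.52e-06), the smallest adjusted p of the 35 members in that comparison. Without batch I the difference of Canx from non-dependent mice was 0.18 (adjusted p = 0.466). The difference of Canx between non-dependent and naive mice was 0.16 ± 0.07 with an adjusted p of 0.38. Uggt1 differed by 0.10 ± 0.10 and 0.17 ± 0.10 from non-dependent and naive mice and was called in neither comparison.

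**Figure D2:**
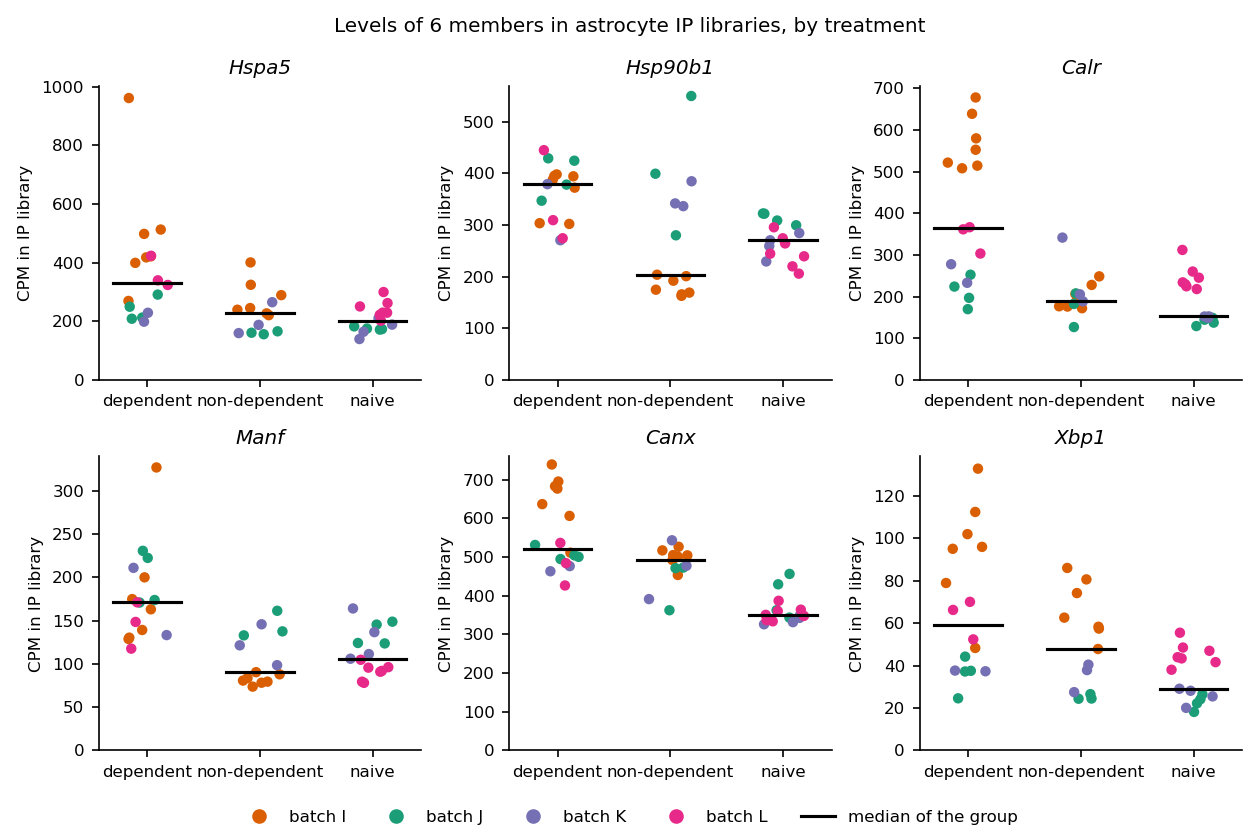
CPM of 6 members in the IP libraries of batches I to L (vertical axes, linear from 0), with a point per mouse coloured by batch and a line at the median of dependent (16), non-dependent (13) and naive (15) mice. The 7 dependent mice of batch I stand highest for Calr at 508 to 678 CPM, and those of the same batch in the non-dependent group stand lowest for Hsp90b1 at 163 to 204 CPM.

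Disulfide isomerases form and reshuffle disulfide bonds, and Pdia3 does so on glycoproteins held by the lectin chaperones. Pdia3 had 153 to 617 CPM (median 371) in dependent mice, against 130 to 386 CPM (median 238) in non-dependent mice and 135 to 299.95 CPM (median 217) in naive mice. The groups overlapped, with 7 and 9 of the 16 dependent mice above every non-dependent and every naive mouse. Pdia3 rose by 0.54 ± 0.12 in both comparisons (adjusted p = 0.0055 and 0.00443, edgeR), and without batch I its difference from non-dependent mice was 0.12 (adjusted p = 0.835). Pdia6 had 76.4 to 368 CPM (median 194) in dependent mice, against 69.4 to 203 CPM (median 146) in non-dependent mice and 72.7 to 151 CPM (median 115) in naive mice, and rose by 0.46 ± 0.11 and 0.52 ± 0.11 (adjusted p = 0.0122 and 0.00257). Pdia6 was not called against non-dependent mice without batch I (0.21, adjusted p = 0.639) or without batch J (0.44, adjusted p = 0.0552), or against naive mice without batch L (0.54, adjusted p = 0.0519). Pdia4 rose by 0.43 ± 0.12 against naive mice (adjusted p = 0.0314) and stood at 0.43 ± 0.12 against non-dependent mice (adjusted p = 0.0514). The call of Pdia4 ended without batch J, K or L (0.51, 0.42 and 0.44, adjusted p = 0.091, 0.122 and 0.179) and with the covariate (0.40, adjusted p = 0.0606). P4hb, the founding protein disulfide isomerase, Pdia5 and Txndc5 were called by edgeR in neither comparison, while DESeq2 called P4hb against naive mice and Pdia4 against non-dependent mice, and Txndc5 stood below 0 in both (-0.21 ± 0.08 and -0.09 ± 0.09).

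Of the 8 members of the degradation machinery, edgeR called 0 against non-dependent mice, with 4 at an unadjusted p under 0.05 and 1, Derl2, called by DESeq2, and 2 against naive mice. Herpud1, an ER membrane protein that assembles the degradation complex, had 26.9 to 119 CPM (median 50.4) in dependent mice, against 21.8 to 68.3 CPM (median 52.2) in non-dependent mice and 15.7 to 50.3 CPM (median 28.5) in naive mice. Herpud1 rose by 0.45 ± 0.11 against naive mice (adjusted p = 0.0103, edgeR) and differed by 0.20 ± 0.11 from non-dependent mice (adjusted p = 0.484). The call of Herpud1 ended without batch J (0.52, adjusted p = 0.0652) and without batch K (0.33, adjusted p = 0.168). Derl3, a derlin of the retrotranslocation channel, was low, with 1.85 to 10.9 CPM (median 4.72) in dependent mice, against 0.413 to 6.41 CPM (median 1.93) in non-dependent mice and 0.585 to 2.66 CPM (median 1.42) in naive mice. Its difference from naive mice, 1.40 ± 0.34 (adjusted p = 0.00994), was the largest of the 35 members, and 13 of 16 dependent mice lay above every naive mouse, while the difference from non-dependent mice was 0.92 ± 0.31 (adjusted p = 0.15) and -0.04 without batch I. The difference of Derl3 from naive mice was not called without batch I (1.01, adjusted p = 0.0807), without batch J (1.24, adjusted p = 0.0778) or without batch K (1.37, adjusted p = 0.0833). Within batches, every dependent mouse lay above every naive mouse for Derl3 in batch K but not in batch J or L, and batch I held no naive mouse.

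Sel1l, the scaffold of the ubiquitin ligase Syvn1 (HRD1), had 114 to 169 CPM (median 131) in dependent mice, against 97.9 to 142 CPM (median 117) in non-dependent mice and 105 to 135 CPM (median 119) in naive mice, and differed by 0.19 ± 0.06 and 0.10 ± 0.06. Derl2 had 53.6 to 121 CPM (median 93.9) in dependent mice, against 43.0 to 94.2 CPM (median 86.7) in non-dependent mice and 73.1 to 111 CPM (median 91.8) in naive mice, with differences of 0.33 ± 0.10 and 0.01 ± 0.10. EdgeR called neither. Edem1 and Os9, lectins that select glycoproteins for degradation, Syvn1 and Derl1 were called in neither comparison, with differences between -0.02 and 0.35.

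Of the translocon and signal peptidase members, Sec11c, a catalytic subunit of the signal peptidase, had 277 to 591 CPM (median 379) in dependent mice, against 224 to 480.4 CPM (median 339) in non-dependent mice and 284 to 550.4 CPM (median 361) in naive mice. The groups overlapped widely, and after batch was taken into account Sec11c rose by 0.30 ± 0.07 against non-dependent mice (adjusted p = 0.0146, edgeR) and stood at 0.19 ± 0.07 against naive mice (adjusted p = 0.151). The call of Sec11c ended without batch I (0.30, adjusted p = 0.311) and without batch K (0.25, adjusted p = 0.0636). Ssr1, a subunit of the translocon-associated protein complex, had 121 to 169 CPM (median 148) in dependent mice, against 108 to 165 CPM (median 132) in non-dependent mice and 122 to 157 CPM (median 138) in naive mice. Ssr1 differed by 0.17 ± 0.06 and 0.02 ± 0.06 and was not called by edgeR, while DESeq2 called it against non-dependent mice. Sec61b, the small subunit of the translocation channel, had 65.5 to 173 CPM (median 109) in dependent mice, against 75.5 to 178 CPM (median 87.0) in non-dependent mice and 78.4 to 175 CPM (median 116) in naive mice, with differences of 0.17 ± 0.09 and 0.12 ± 0.09, neither called. Sec61a1 and Ssr2 lay between -0.09 and 0.14.

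Of the sensors and the transcription factor, Xbp1 alone was called. Xbp1 had 24.5 to 133 CPM (median 59.3) in dependent mice, against 24.4 to 86.0 CPM (median 47.8) in non-dependent mice and 18.1 to 55.5 CPM (median 29.1) in naive mice. It rose by 0.42 ± 0.10 against non-dependent mice (adjusted p = 0.0169, edgeR) and by 0.57 ± 0.11 against naive mice (adjusted p = 0.00066), and without batch J or without batch I the first was not called (0.37, adjusted p = 0.151, and 0.38, adjusted p = 0.233). The counts are per gene, so the unspliced form of Xbp1 RNA and the form spliced by IRE1 were not separated.

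The 3 sensors were present at lower levels. Ern1 had 2.67 to 8.04 CPM (median 4.25) in dependent mice, against 1.79 to 5.55 CPM (median 3.77) in non-dependent mice and 1.61 to 5.91 CPM (median 3.03) in naive mice. Atf6 had 13.6 to 29.8 CPM (median 19.4) in dependent mice, against 13.1 to 26.7 CPM (median 18.5) in non-dependent mice and 10.6 to 27.9 CPM (median 19.9) in naive mice. Eif2ak3 had 7.35 to 14.3 CPM (median 10.1) in dependent mice, against 4.90 to 15.98 CPM (median 9.64) in non-dependent mice and 5.02 to 12.2 CPM (median 8.54) in naive mice. These ranges overlapped throughout. The differences from non-dependent mice were 0.20 (95% interval -0.18 to 0.58) for Ern1, 0.15 (-0.09 to 0.40) for Atf6 and 0.13 (-0.15 to 0.41) for Eif2ak3. From naive mice they were 0.43 (0.03 to 0.83, adjusted p = 0.284) for Ern1, -0.01 (-0.26 to 0.24) for Atf6 and 0.08 (-0.21 to 0.37) for Eif2ak3, and none was called.

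In non-dependent over naive mice edgeR called 0 of the 35 members in IP, with 0.440% of all genes called, 6 members at an unadjusted p under 0.05 and 0 members by DESeq2. Of those 6, Ssr2, Derl2, Ssr1 and Derl1 stood below 0 (-0.23 ± 0.08, -0.32 ± 0.12, -0.15 ± 0.06 and -0.13 ± 0.06) and Canx and Herpud1 above it (0.16 ± 0.07 and 0.25 ± 0.12). For the members that rose in dependent mice the 95% intervals ran from -0.30 to 0.28 for Calr, -0.37 to 0.15 for Hspa5 and -0.47 to 0.05 for Manf. Both groups occur together in batches J and K alone, and elsewhere dependent mice connect them.

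Treatment differences of the 35 members were also taken within each batch. The median difference of the 35 members between dependent and naive mice was 0.29 in batch J (4 against 4 mice), 0.30 in batch K (2 against 4) and 0.28 in batch L (3 against 7), with 27, 29 and 28 members above 0. Between dependent and non-dependent mice the median was 0.36 in batch I (7 against 7), 0.22 in batch J (4 against 3) and -0.04 in batch K (2 against 3), with 34, 23 and 16 members above 0. Whether the difference itself varied between batches was not tested. In batch I, every dependent mouse lay above every non-dependent mouse for 9 members, against 0.325% of all genes tested: Hsp90b1, Dnajb9, Dnajb11, Sdf2l1, Manf, Calr, Pdia3, Pdia6 and Derl3. The same held for 5 members in batch J (2.55% of all genes), among them Hspa5, Manf and Canx, and for 4 in batch K (7.25%). Every dependent mouse lay above every naive mouse for 8 members in batch J (2.84%), 13 in batch K (9.32%) and 5 in batch L (2.56%), with Canx in each of these 3 batches. Every non-dependent mouse lay above every naive mouse for 1 member, Ern1, in batch J (4.17%). In batch K the non-dependent mice themselves stood above the naive mice, with a median member difference of 0.27 (3 against 4), and 7 members, among them Calr, Canx and Hsp90b1, had every non-dependent mouse above every naive mouse, against 7.07% of all genes.

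**Figure D3:**
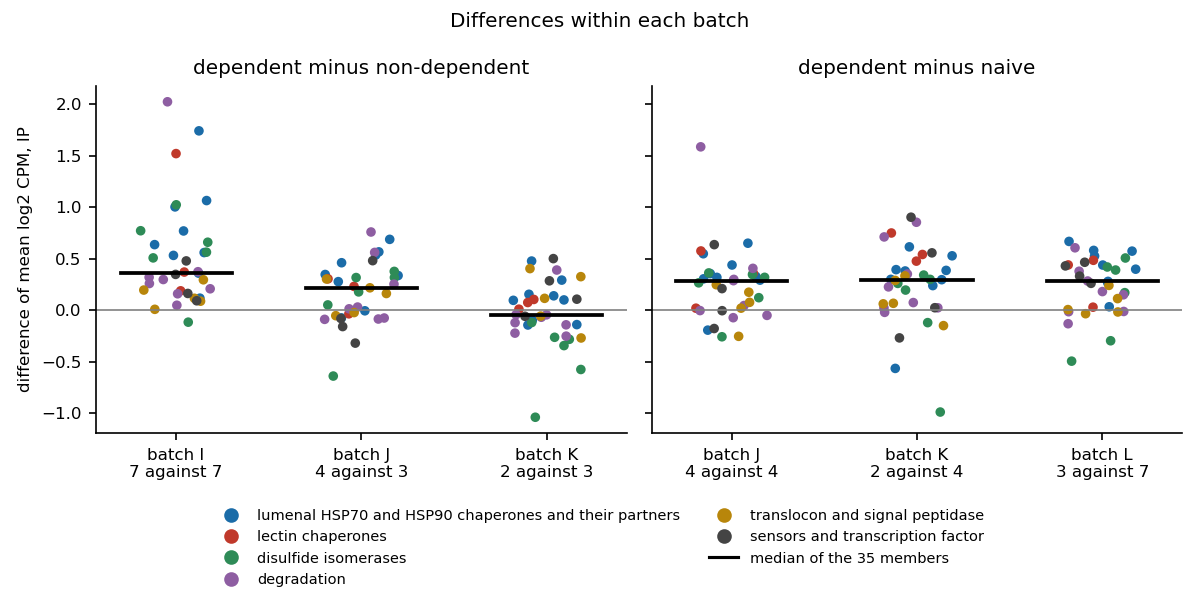
Difference of mean log2 CPM in IP within each batch (vertical axis), with a point for each of the 35 members coloured by role and a line at their median. Medians lie at 0.28 to 0.30 in every batch for dependent minus naive mice, and at 0.36, 0.22 and -0.04 in batches I, J and K for dependent minus non-dependent mice.

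Other gene groups differed between the same mice. All 10 genes of a list for MHC class I and its peptide loading, which takes place in the ER with Calr and Pdia3, rose against non-dependent mice (median 1.82) and 7 of 10 against naive mice (median 1.56). Of all genes tested, 1.10% and 2.81% rose. This list, like the others, was chosen with earlier results of these data known. The summed level of its genes in IP was 633 to 6905 CPM in dependent mice, against 510 to 706 CPM in non-dependent mice and 398 to 630.3 CPM in naive mice. Microglia markers summed to 176 to 744 CPM in dependent mice, against 188 to 272 CPM in non-dependent mice and 187 to 278 CPM in naive mice, and 3 of 10 rose against non-dependent mice and 0 against naive mice, while blood leukocyte markers were near 0 (at most 6.56 CPM in sum, 8 of 11 at a median of 0 in dependent mice), with S100a9, also at a median of 0 in dependent mice, called lower than in naive mice. Of the markers of medium spiny neurons, Adora2a fell against non-dependent and naive mice (-0.51 ± 0.13 and -0.56 ± 0.14) and Bcl11b against naive mice (-0.33 ± 0.10). The oligodendrocyte marker Cnp fell against naive mice (-0.32 ± 0.09). Of the 12 astrocyte markers, only Gfap (0.98 ± 0.18), Gjb6 (0.72 ± 0.13) and Fgfr3 (0.26 ± 0.08) rose against naive mice. The rest were not called and ran from -0.20 ± 0.08 for Gja1 to 0.13 ± 0.10 for Glul. The dependent mice I02, I05, I11 and J05 had the highest summed MHC class I levels. The fits were repeated without these mice, a choice made after seeing the data. Every dependent mouse had a higher sum than any naive mouse (633 CPM or more against 630.3 CPM or less). Leaving these mice out thus does not remove that difference from naive mice, and its relation to the members was not tested. Without mice I02, I05, I11 and J05, 11 of the 14 members called against non-dependent mice and all 15 called against naive mice remained. With a covariate for the markers of other cell types over those of astrocytes 13 and 12 remained. The share of all genes that kept their call is not given here. That covariate averages markers that themselves differed between treatments, among them Gfap, Gjb6, Fgfr3 and Adora2a, so it can hold part of the treatment difference.

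In the input, the whole tissue, edgeR called 0 of the 35 members between dependent and non-dependent mice, where 0.355% of all 19691 genes tested were called and 0.0457% fell, 5 members had an unadjusted p under 0.05 and DESeq2 called 0. Against naive mice 2 members rose and none fell, with 2.38% of all genes called and 1.42% higher. These were Dnajc3 (0.39 ± 0.08, adjusted p = 0.00375) and Pdia4 (0.31 ± 0.09, adjusted p = 0.0363). Dnajc3 had 41.7 to 99.4 CPM (median 71.2) in the input of dependent mice, against 34.3 to 70.0 CPM (median 53.5) in that of naive mice, with the 2 groups overlapping. Pdia4 had 23.2 to 86.1 CPM (median 58.9) in the input of dependent mice, against 17.6 to 58.3 CPM (median 35.9) in that of naive mice. Both calls ended without batch L and with the covariate for markers of other cell types over those of astrocytes. Of the markers in that covariate, Gfap and Gjb6 also rose in input against naive mice, so it can hold part of the treatment difference. In such bulk tissue, fewer cells of a type and less RNA per cell cannot be told apart. Between non-dependent and naive inputs edgeR called 0 members (0.122% of all genes, 0.0609% in each direction), with 1 member at an unadjusted p under 0.05 and 0 by DESeq2.

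Whether a treatment difference was larger in IP than in the input of the same mice was tested in 44 mice with the mouse as a block. For dependent minus non-dependent mice it was larger in IP for 6 members, while 0.0923% of all genes were called, all of them in that direction. These were Calr (0.74 ± 0.11, adjusted p = 0.000184), Manf (0.63 ± 0.11), Creld2 (0.59 ± 0.12), Hspa5 (0.55 ± 0.11), Sdf2l1 (0.93 ± 0.18) and Pdia3 (0.55 ± 0.11). For dependent minus naive mice the members with a larger difference in IP were Calr (0.58 ± 0.12, adjusted p = 0.00837), Xbp1 (0.49 ± 0.12, adjusted p = 0.0412) and Hsp90b1 (0.51 ± 0.12, adjusted p = 0.0412), with 0.356% of all genes called and 0.162% higher. For non-dependent minus naive mice edgeR called 0 members and 0 genes, and 7 members had an unadjusted p under 0.05. Without the mouse as a block no member was called in any of these tests.

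The 2 fractions also differ in the levels of these genes. Over the 46 mice with both libraries, 25 members were higher in IP, 6 were lower and 4 were not called, with 78.5% of all genes called, 33.6% higher and 45.0% lower. Dnajc3 had a mean of 153 ± 33.4 CPM in IP, against 60.5 ± 16.1 CPM in input (SD, n = 46 mice), higher in IP in all 46, with a log2 fold change of 1.52 ± 0.04. Derl2 (1.52 ± 0.05), Canx (1.04 ± 0.03) and Derl1 (0.91 ± 0.03) followed by adjusted p. Canx had a mean of 469 ± 106 CPM in IP, against 252 ± 31.2 CPM in input, also higher in IP in every mouse.

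The members lower in IP were Atf6 (-0.70 ± 0.05), Xbp1 (-0.57 ± 0.06), Ssr2 (-0.35 ± 0.04), Pdia5 (-0.96 ± 0.11), Syvn1 (-0.42 ± 0.07) and Hyou1 (-0.30 ± 0.10). Atf6 was lower in IP in all 46 mice and had a mean of 20.02 ± 4.30 CPM in IP, against 36.3 ± 6.31 CPM in input. Hspa5, at 272 ± 139 CPM in IP, against 267 ± 115 CPM in input, was close to even (0.19 ± 0.05, adjusted p = 0.000734, higher in IP in 25 of 46 mice). Os9, Herpud1, Sdf2l1 and Derl3 were not called. The sensors went both ways, since Ern1 (0.83 ± 0.10) and Eif2ak3 (0.32 ± 0.07) were higher in IP.

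**Figure D4:**
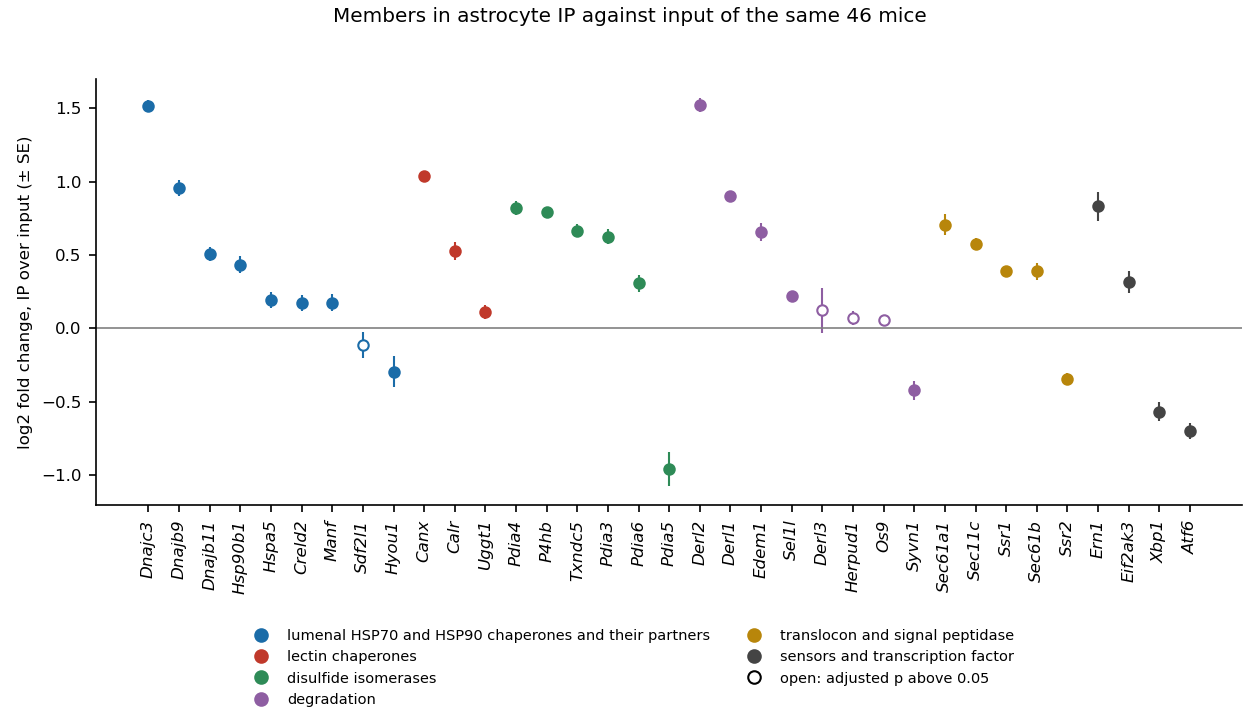
Log2 fold change of IP over input of the same 46 mice (vertical axis, with SE) for the 35 members, ordered within their role and coloured by it; open points were not called. Dnajc3 and Derl2 lie at 1.52 and Pdia5 at -0.96.

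Levels per kilobase of annotated exon (CPM per kb) allow the genes to be ordered. In IP the order began with Canx (99.97 ± 22.5), Calr (92.7 ± 49.97) and Sec61b (92.4 ± 27.4), followed by Pdia3 (85.6), Hsp90b1 (76.5) and Hspa5 (64.4). The SDs of these 6 over mice overlap. All were measured in the same mice, and whether neighbours in this order differ within mice was not tested. At the other end stood Ern1 (0.469), Pdia5 (0.761), Hyou1 (0.782), Derl3 (1.54) and Eif2ak3 (1.59). In input the order began with Ssr2 (83.0), Sec61b (80.7) and Calr (70.2) and ended with Ern1 (0.296).

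Levels also differed between batches. The batch term was called for 24 of the 35 members in IP (46.6% of all genes) and for 27 in input (52.1%), with the treatment groups in the model. Xbp1 had a median of 79.7 CPM in the IP libraries of batch I, 24.5 in batch J, 29.1 in batch K and 47.7 in batch L. Txndc5 had 122, 52.1, 57.4 and 115 CPM in the same order, and Sec61a1 had 40.7, 8.94, 13.3 and 30.97 CPM. Sec11c and Manf went the other way, with 331 and 110 CPM in batch I against 451 and 149 CPM in batch J.

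No member and no gene was called by edgeR for a sex by treatment term in IP, against non-dependent or against naive mice, where 0 members and 668 or 627 genes had an unadjusted p under 0.05 and DESeq2 called 0 members and 15 or 14 genes. Calr differed from naive mice by 0.78 in females and 0.87 in males, and from non-dependent mice by 1.004 and 0.67. Hspa5 differed from naive mice by 0.42 and 0.60 and from non-dependent mice by 0.67 and 0.58. The difference of females minus males in the Calr response against non-dependent mice had an interval of -0.15 to 0.83.

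Variation between mice of the same group and batch was set against that of Hspa5. After treatment by sex and batch were taken out of log2 CPM in the 44 IP libraries, Pdia4 followed Hspa5 with Pearson's r = 0.793 and Spearman's rho = 0.757 (permutation p = 1e-05 for each, the smallest that 100000 permutations can give). Its adjusted p over all 19978 other genes tested was 0.04, r was 0.715 without the 2 libraries farthest from the Hspa5 median, and r was 0.836, 0.712, 0.789 and 0.788 within batches I, J, K and L. Pdia6 followed with r = 0.619 and rho = 0.522 (permutation p = 1e-05 and 0.00041, adjusted p = 0.04 for r), 0.498 without those 2 libraries and 0.768, 0.743, 0.451 and 0.406 within the batches. These were 2 of the 34 relations computed, while 0.0200% of all genes, 4 in number, had a called positive relation with Hspa5 and 0.0250% a called relation of either sign. For Pdia4 and Pdia6 the p of r was the smallest that 100000 permutations can give. Their adjusted p of 0.04 and the number of genes called therefore depend on the number of permutations. Xbp1 had r = 0.597 (permutation p = 6e-05, adjusted p over all genes 0.0761), with 0.766 in batch I and 0.00705 in batch L. The median r was 0.27 over the 34 members and 0.00799 over all genes, and r was below 0 for Derl2, Ssr2, Ern1, Atf6 and Eif2ak3.

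**Figure D5:**
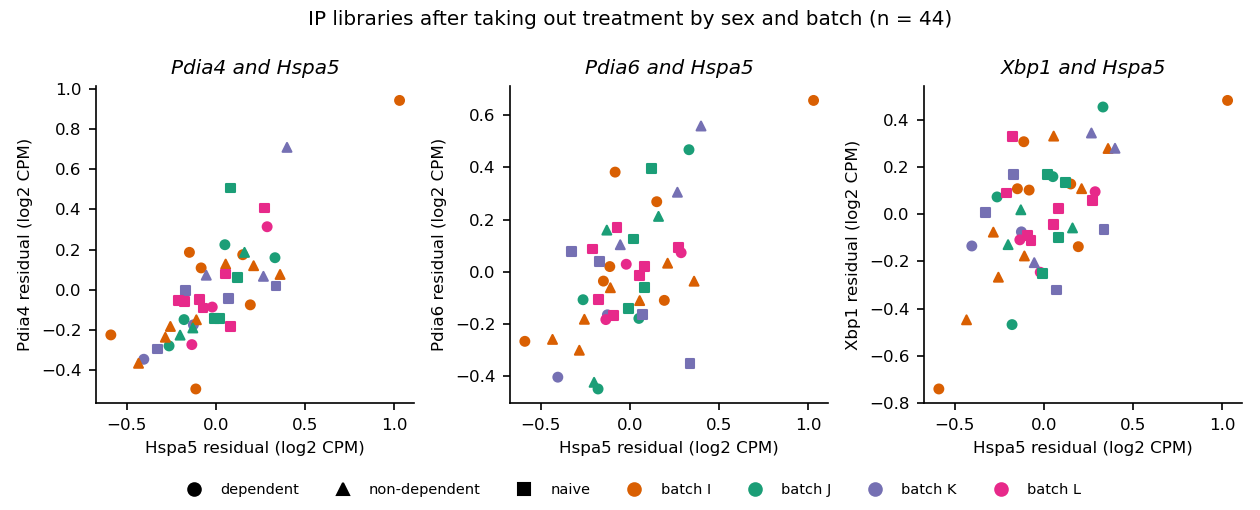
Residual log2 CPM of Pdia4, Pdia6 and Xbp1 (vertical axes) against that of Hspa5 (horizontal axis) in 44 IP libraries after treatment by sex and batch were taken out, with colours for batch and shapes for treatment. The points rise together for Pdia4 (r = 0.793), less tightly for Pdia6 (r = 0.619) and Xbp1 (r = 0.597), and the dependent mouse I11 lies at the upper right in each.

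Other genes of the pathway were counted in the same way. Of 18 other folding and oxidation genes, edgeR called 0 in IP in either comparison, with 3 at an unadjusted p under 0.05 in each; DESeq2 called 2 against non-dependent mice and 0 against naive mice. Of 20 further translocon, signal peptidase and oligosaccharyltransferase genes, 3 rose against non-dependent mice and 4 against naive mice. Ssr3, another subunit of the translocon-associated protein complex, rose by 0.34 ± 0.06 and 0.40 ± 0.07 (adjusted p = 0.00195 and 0.000172), Sec63 by 0.32 ± 0.07 and 0.27 ± 0.08, and Spcs2, a signal peptidase subunit, by 0.30 ± 0.08 and 0.28 ± 0.08. Of 17 other degradation genes, Selenok and Selenos rose against non-dependent mice (0.26 ± 0.06 and 0.27 ± 0.07) and Nploc4 against naive mice (0.38 ± 0.10). Of 13 other regulators of the response edgeR called 0 in either comparison, with 3 and 2 at an unadjusted p under 0.05 and 0 and 1 called by DESeq2, against non-dependent and naive mice in that order.

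Of the PERK branch and the integrated stress response, 11 genes were tested and 2 rose in each comparison. Ddit3, also on this list, was not among the genes tested, so nothing is said of it here. Cebpb, a transcription factor that pairs with several stress factors, rose by 1.49 ± 0.17 against non-dependent mice and by 1.53 ± 0.18 against naive mice (adjusted p = 1.06e-06 and 2.81e-07). Atf4, the transcription factor translated when PERK is active, rose by 0.41 ± 0.09 against non-dependent mice and stood at 0.11 ± 0.09 against naive mice (adjusted p = 0.641). Sesn2 rose by 0.82 ± 0.16 against naive mice and stood at 0.39 ± 0.15 against non-dependent mice (adjusted p = 0.229).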

How the data were processed

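The authors deposited raw read counts per gene in a table with a column for each library. STAR 2.7.10b, Trimmomatic 0.39, FastQC 0.11.9 and the build GRCm38 are named in the submitters' processing notes. How reads were assigned to genes (tool, annotation, strand) is not given in the sources used here. The number of sample columns left unused was 0. CPM are the deposited counts over the library total, without batch adjustment, and levels per kb use exon lengths of the GRCm38 annotation. Counts carry no molecular identifiers.

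Genes passing edgeR's filterByExpr (minimum count 10, minimum total 15) were tested with its quasi-likelihood test (edgeR 4.0.16, R 4.3.3, TMM normalization), with Benjamini-Hochberg adjustment over all genes and a threshold of 0.05. Treatment fits used batches I to L with treatment by sex and batch as terms, and the difference is the mean of that in females and that in males. IP over input and its interaction with treatment used the mouse as a block, since the labels give both libraries of a mouse the same name. IP and input of a mouse deviated together (median correlation 0.58 over 12106 genes, above 0.1 in 45 of 46 mice and -0.225 in mouse K15), against a median of 0.41 with other mice of the batch, and 30 of 46 mice correlated best with their own input. SE is the log2 fold change over the root of F, and intervals are 95%. Log2 CPM for within-batch differences and residuals used a prior count of 2. Alternatives were DESeq2 1.42.0, other normalization, filters, batches and covariates. The IP treatment fit, the IP over input fit and the interaction for dependent minus naive mice were run on simulated counts. Those counts had the same dispersion for all genes and no batch or mouse effect. The other fits were not simulated.

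Replicates are mice. The members and all lists were chosen with earlier results of these data known. Values by library are given for Hspa5, Calr, Manf, Xbp1, the 3 sensors and, for each role, the members with the smallest p in each IP comparison. Other members are given by call, range or value.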

Additional observations from a re-analysis of the deposited data

Results flagged for a closer look

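For 9 results the treatment difference in IP differed from that in the input of the same mice, by the interaction term of edgeR's quasi-likelihood test with the mouse as a block. For dependent minus non-dependent mice the interaction (log2) was 0.74 for Calr, 0.63 for Manf, 0.59 for Creld2, 0.55 for Hspa5, 0.93 for Sdf2l1 and 0.55 for Pdia3, with adjusted p of 0.000184, 0.00267, 0.0133, 0.0133, 0.0133 and 0.0154. For dependent minus naive mice it was 0.58 for Calr, 0.49 for Xbp1 and 0.51 for Hsp90b1, with adjusted p of 0.00837, 0.0412 and 0.0412.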

How the results depend on the processing

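The count of members called in IP between dependent and non-dependent mice, 14, became 5 with no batch term, 0 in batches J and K only, 0 without batch I and 8 without batch J. Between dependent and naive mice the 15 became 3 in batches J and K only, 8 without batch J and 8 without batch K. Between non-dependent and naive mice the 0 became 1 with no batch term. In input, the 2 called between dependent and naive mice became 0 in batches J and K only, 1 without batch J, 0 without batch L, 0 with the composition covariate and 1 without mice I02, I05, I11 and J05. Without the replicate block (the mouse), the 6 and 3 members with a larger difference in IP than in input became 0 and 0. The cause of these changes was not tested, though the settings that leave out batches also hold fewer mice. Calls over all genes also fell without batch I, as given above. Their share under the other settings is not given here, so these counts are not particular to the members. RLE normalization, no count filter and DESeq2 kept the counts of the IP comparisons within 1.5 times. Leaving out mice I02, I05, I11 and J05, mouse K15 or mouse I11 was chosen after seeing the data.

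Of the named members, 10 values between dependent and naive mice and 4 between dependent and non-dependent mice changed sign under a setting, and none of these was called. Between dependent and non-dependent mice these were Ern1 (-0.0246 in batches J and K only and -0.0166 without batch I), Atf6 (-0.0572 in batches J and K only) and Derl3 (-0.04 without batch I). Between dependent and naive mice these were Atf6 (0.0457 without batch J, 0.0778 without batch K, 0.0160 with the composition covariate and 0.0060 without mouse K15), Eif2ak3 (-0.0612 in batches J and K only and -0.0818 without batch L), Derl2 (-0.12 without batch K and -0.0586 with the composition covariate), Sel1l (-0.0039 in batches J and K only) and Ssr1 (-0.00060 without batch K).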
